A study of Mus musculus with 2 samples.

Results

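The genes of the proteasome were described in sorted islet beta cells of mutant mice. A gene was a member where its symbol began with Psma, Psmb, Psmc, Psmd, Psme, Psmf or Psmg and went on with a number and at most 1 further letter. The rule found 49 of the 55487 genes listed, all of them in both libraries. The mice carried the alleles MytF/F, Myt2F/F and Myt3F/F together with RipCre, which drives Cre recombinase from the rat insulin promoter, and were 2 months old. Myt2 and Myt3 are listed under the symbols Myt1l and St18. Both libraries belonged to this 1 group, from islets of pooled males and females that had been dissociated with trypsin and sorted by fluorescence. No control beta cells were analysed here, so no value compares mutant with control cells. The study as a whole asked which genes depend on Myt factors in beta cells under normal blood glucose.

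The proteasome degrades proteins that carry ubiquitin chains. Its 20S core is a barrel of alpha and beta rings, and the proteolytic sites sit on the beta subunits encoded by Psmb5, Psmb6 and Psmb7. Interferon gamma induces Psmb8, Psmb9 and Psmb10, whose products take the places of these 3 in newly built cores and give the immunoproteasome, which favours peptides that fit MHC class I molecules. The 19S cap, a base of ATPases with a lid, binds ubiquitin chains and unfolds the substrate, while the 11S (PA28) and PA200 caps open the core without ATP. In beta cells, where a large share of protein synthesis goes to proinsulin, proteasomes also clear misfolded proteins exported from the endoplasmic reticulum.

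Library 1 held 50121771 counted reads and library 2 held 39003197. All 9 beta-cell markers examined, from Ins2 and Ins1 to Pdx1, Mafa and Ucn3, were above 1 CPM in both libraries, where CPM is a gene's count scaled to a fixed library total. The targeted genes were counted in both, Myt1 at 77.6 and 65.4 CPM, Myt1l at 44.5 and 39.0 CPM and St18 at 72.7 and 56.5 CPM. A count takes in every exon, deleted or not, so these levels are no check of the genotype. Library 2 is labelled a duplicate, and whether other mice were used for it is not stated, so a p-value covers only the reads of these libraries. Over 20681 genes with 10 or more reads summed, the counts differed beyond sampling noise (chi-square per degree of freedom 28.6), so the libraries were kept as 2 samples. Acinar markers stood apart. All 10 were higher by 2-fold or more in library 2, at a Benjamini-Hochberg adjusted p under 0.05 in an exact binomial test. This held for 1.91% of all genes tested. All 6 ductal markers were also higher in library 2, but none by 2-fold. Of these, Cftr (log2 ratio 0.03) and Sox9 (0.58, from 24 and 28 reads) did not pass by adjusted p.

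Nearly all proteasome genes were expressed. Of the 49 members, 46 reached 1 CPM in both libraries, and these had between 127 and 9383 reads each. Length-scaled levels, in TPM (counts per exon length, scaled to the same fixed total), had a median of 43.6 in library 1 and 44.1 in library 2 over all 49 members. Genes at a mean of 1 CPM or more, 13955 in all, had medians of 14.3 and 13.9 TPM. The deposited TPM divide by the length of all merged exons of a gene, retained introns included, so the level of a gene with long alternative transcripts is low on this scale. The members just inside and just outside the 1 CPM limit were Psmg3, with 4.09 and 3.26 CPM, and Psme2b, with 0.0798 and 0.231 CPM. The 3 members below the limit were Psme2b, Psma8 and Psmb11.

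**Figure D1:**
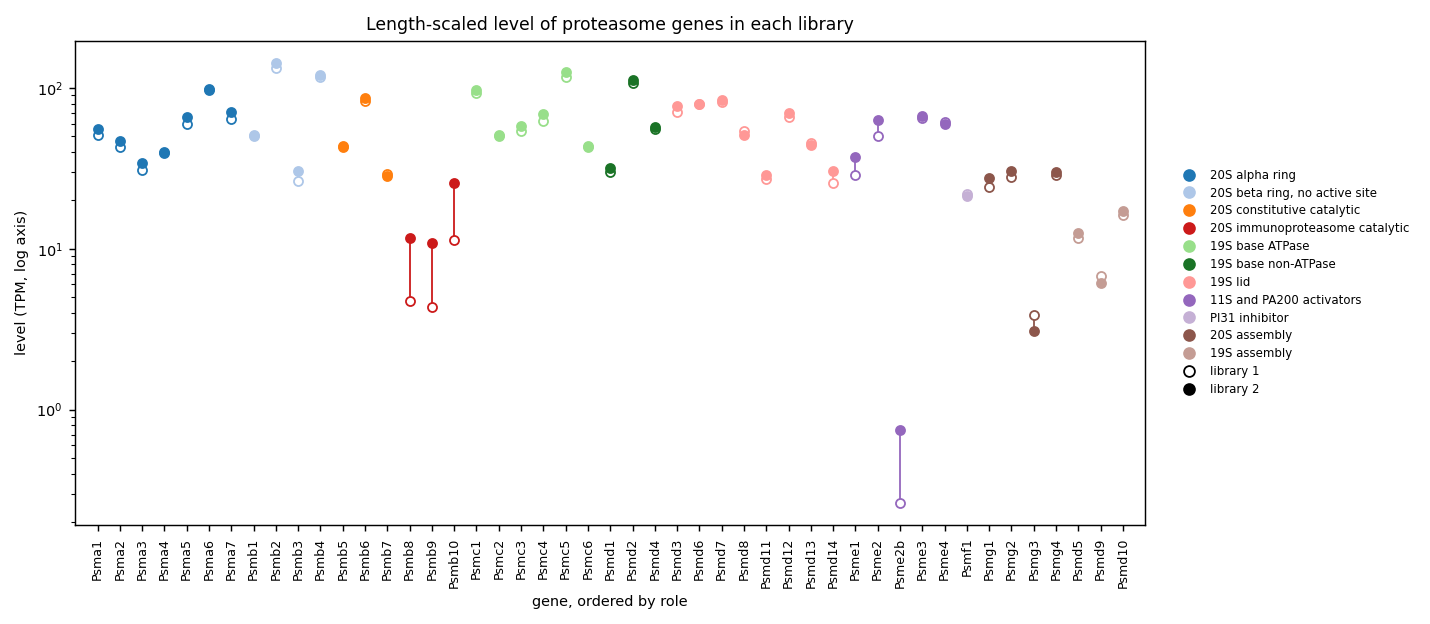
Level of each proteasome gene in TPM (log axis), ordered by role, with library 1 as open and library 2 as filled circles joined by a line. Psma8 and Psmb11 are not drawn because they had no read in library 1. All constitutive subunits of the core and the 19S cap lie between 25.7 and 143 TPM, and Psmb8, Psmb9 and Psmb10 lie lower and farther apart between the libraries.

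The 7 genes of the alpha ring, which form the outer rings of the core and its gate, were all detected. Their median was 51.1 TPM in library 1 and 55.9 TPM in library 2. Psma6 was the highest, with 99.1 and 96.5 TPM, and Psma3 the lowest, with 30.8 and 34.2 TPM. The highest thus exceeded the lowest 3.01-fold by mean TPM, although each ring holds their products in equal number. On the length of the longest coding transcript, Psma7 (179 TPM) and Psma1 (132 TPM) exceeded Psma6 (116 TPM). Psma8, which encodes the alpha subunit of testis proteasomes, had 0 reads in library 1 and 1 read in library 2. The limit that a count of 0 allows was 0.0599 CPM for library 1 and 0.0769 CPM for the other.

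The beta subunits without a proteolytic site included the most abundant member on the TPM scale. Psmb2 had 134 and 143 TPM and Psmb4 had 117 and 120 TPM. Psmb1 lay at 50.2 and 51.1 TPM and Psmb3 at 26.4 and 30.6 TPM. The order of these genes depended on the length used, since the merged exons of Psmb4 were 1.65 times as long as its longest protein-coding transcript and those of Psmb2 1.40 times. With that transcript as length, Psmb4 had a mean of 195 TPM and Psmb2 of 194 TPM. The catalytic gene Psmb6 then exceeded both, with a mean of 199 TPM. Psmb11, the thymus-specific catalytic subunit of cortical epithelium, had 0 reads in library 1 and 4 reads in library 2, or 0.103 CPM. It lies on chromosome 14, 3.41 kb from Psmb5.

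Among the 19S genes, the base and lid had levels near those of the core. The 17 base and lid genes had a median of 55.2 TPM in library 1 and 58.1 TPM in library 2, against 50.7 and 53.5 TPM for the 14 constitutive 20S genes. Of the ATPases, which unfold and translocate the substrate, Psmc5 was the highest with 116 and 125 TPM and Psmc6 the lowest with 42.7 and 43.3 TPM. In the rest of the base, the scaffold gene Psmd2 had 107 and 113 TPM, the ubiquitin receptor gene Psmd4 had 55.2 and 57.3 TPM, and the other scaffold gene Psmd1 had 29.9 and 31.8 TPM. In the lid, Psmd7 was the highest with 81.4 and 83.9 TPM. Psmd11 was the lowest lid gene by its mean, with 27.0 and 28.6 TPM, and Psmd14, which encodes the deubiquitinase of the lid, had 25.7 and 30.6 TPM. Psmd14 and Psmd11 had mean levels of 28.2 ± 3.48 and 27.8 ± 1.13 TPM (SD, n = 2) and did not differ beyond that spread. With the longest coding transcript as length, Psmd3 (172 TPM) and Psmd6 (159.8 TPM) exceeded Psmd7 (118 TPM), Psmd14 (51.6 TPM) was the lowest lid gene, and Psmc2 (143 TPM) exceeded Psmc5 (128 TPM).

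Genes for assembly chaperones had lower median levels than the constitutive subunits of the core and the 19S cap. The 4 genes that guide the alpha ring, Psmg1 to Psmg4, had a median of 26.0 and 28.6 TPM. Psmg4 was the highest with 28.6 and 29.8 TPM, and Psmg3 the lowest with 3.89 and 3.06 TPM. Psmg3 has merged exons 3.28 times as long as its longest coding transcript, and with that transcript its mean was 11.4 TPM, still the lowest of the 4, while Psmg2 (38.8 TPM) and Psmg1 (33.2 TPM) then exceeded Psmg4 (29.2 TPM). The 3 chaperones of the 19S base, Psmd5, Psmd9 and Psmd10 (gankyrin), had a median of 11.6 and 12.5 TPM. Psmd10 had 16.2 and 17.3 TPM and Psmd9 had 6.76 and 6.15 TPM, but 25.5% of the exon bases of Psmd9 lie over an antisense gene and its count is uncertain. Scaled to the longest coding transcript, these 3 genes lay between 17.2 TPM (Psmd10) and 19.8 TPM (Psmd5). Psmf1, whose product PI31 binds the core and inhibits it in vitro, had 21.8 and 21.4 TPM.

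In both libraries the constitutive catalytic subunits exceeded the inducible ones on the TPM scale. Psmb5, which carries the chymotrypsin-like site, had 43.6 TPM in library 1 and 42.9 TPM in library 2. Its counterpart Psmb8 had 4.76 and 11.7 TPM. Both libraries thus had Psmb5 above Psmb8, by 9.15-fold in library 1 (exact 95% interval 7.98 to 10.5) and by 3.65-fold in library 2 (3.24 to 4.11). Psmb6, which carries the caspase-like site, had 83.4 and 86.6 TPM. Its counterpart Psmb9 had 4.36 and 10.9 TPM. Psmb6 exceeded Psmb9 19.1-fold in library 1 (17.0 to 21.7) and 7.95-fold in library 2 (7.25 to 8.73), the widest gap of the 3 pairs. Psmb7, which carries the trypsin-like site, had 29.1 and 28.3 TPM, and Psmb10 had 11.4 and 25.6 TPM. Psmb7 exceeded Psmb10 2.56-fold in library 1 (2.28 to 2.87) and 1.11-fold in library 2, where the lower bound of the interval, 1.006, nearly reached equality. With the longest coding transcript as length the order held in each pair, but the ratios moved. Psmb8 then stood at 0.227 and 0.569 times Psmb5, Psmb9 at 0.0603 and 0.145 times Psmb6, and Psmb10 at 0.173 and 0.398 times Psmb7.

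**Figure D2:**
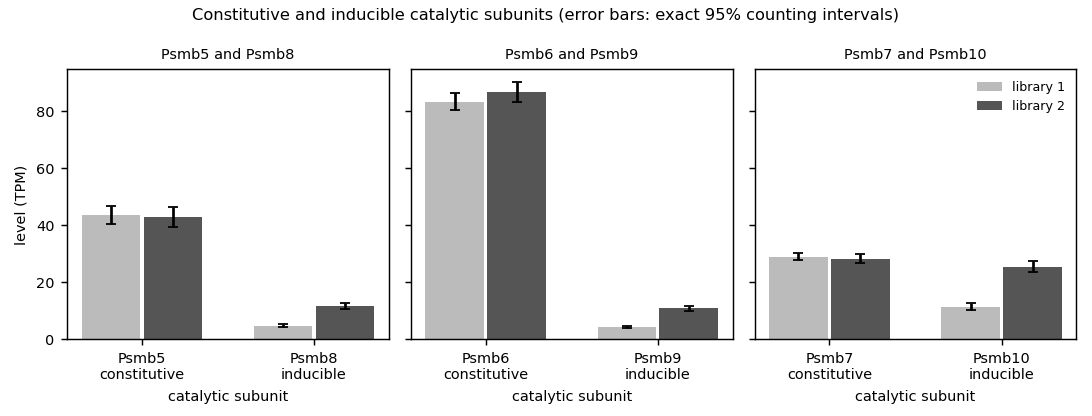
Level in TPM of each constitutive catalytic subunit and its inducible counterpart in library 1 (light bars) and library 2 (dark bars), with exact 95% intervals of the counts as error bars. The constitutive subunits are at like levels in both libraries, and the inducible ones are higher in library 2, where Psmb10 at 25.6 TPM nearly reaches Psmb7 at 28.3 TPM.

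Summed over the pairs, the inducible genes took 11.6% of the TPM of the 6 catalytic genes in library 1 and 23.4% in library 2. With the longest coding transcript as length these shares were 10.1% and 20.9%. The Psmb5 value is the least certain, because 54.1% of its 50-base words occur in other transcripts, with Gm3375, Mir686 (a gene on the same strand over 12.1% of its exon bases) and Psmb5-ps sharing the most, and how the authors counted reads that match several places is not given in the sources used here. Without length scaling, Psmb8 stood at 1.03 times the CPM of Psmb5 in library 2, so that pair then did not pass in both libraries. Psmb8 shares 11.9% of its words with other transcripts, mostly Gm20496, an antisense gene over 14.7% of its exon bases. Psmb9 shares 4.19%, with Tap1, and Psmb10 shares none.

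Between the libraries, the inducible catalytic genes were the only members called, that is, with a Benjamini-Hochberg adjusted p under 0.05 in an exact binomial test and a CPM ratio of 2-fold or more. Psmb8 had 293 reads in library 1 and 569 in library 2, or 5.85 and 14.6 CPM. Its log2 ratio was 1.32 (95% interval 1.11 to 1.53; adjusted p = 9.70e-38, exact binomial test). Psmb9 had 290 and 571 reads, or 5.79 and 14.6 CPM, a log2 ratio of 1.34 (1.13 to 1.55; adjusted p = 1.24e-38, exact binomial test). Psmb10 had 353 and 624 reads, or 7.04 and 16.0 CPM, a log2 ratio of 1.18 (0.99 to 1.38; adjusted p = 6.74e-35, exact binomial test). All 3 were therefore higher in library 2, by 2.496-fold, 2.53-fold and 2.27-fold in CPM. The calls made up 3 of 47 members tested, or 6.38%, beside 4.31% of all 20681 genes called in either direction, 1.91% called higher in library 2 and 2.40% called lower. Among 13955 genes at a mean of 1 CPM or more, 2.55% were called in either direction, beside 3 of 46 members. With 3 calls, such a share is no result about the members as a whole. The members just inside and just outside the 2-fold limit were Psmb10 and, among detected members, Psme1 at 1.32-fold. Psme2b had a larger ratio, 2.89-fold, but rested on 4 and 9 reads and did not pass (adjusted p = 0.201, exact binomial test).

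The ratio of inducible to constitutive subunits was tested in itself. The odds of a Psmb8 read against a Psmb5 read were 2.51 times as high in library 2 as in library 1 (95% interval 2.09 to 3.01; adjusted p over 4 tests 2.54e-24, two-sided Fisher's exact test). For Psmb9 against Psmb6 the odds ratio was 2.41 (2.06 to 2.81) and for Psmb10 against Psmb7 it was 2.31 (1.99 to 2.69). The intervals of the 3 pairs overlap, and the ratio of the summed groups was 2.37 (2.17 to 2.60; adjusted p = 1.35e-83, Fisher's exact test). Their constitutive counterparts showed log2 ratios of -0.01 (Psmb5), 0.07 (Psmb6) and -0.02 (Psmb7) and did not pass the test. With edgeR's TMM scaling, the signs of Psmb5 and Psmb7 turned to 0.04 and 0.02, and Psmb6 passed by adjusted p (log2 ratio 0.11; adjusted p = 0.0178, exact binomial test).

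**Figure D3:**
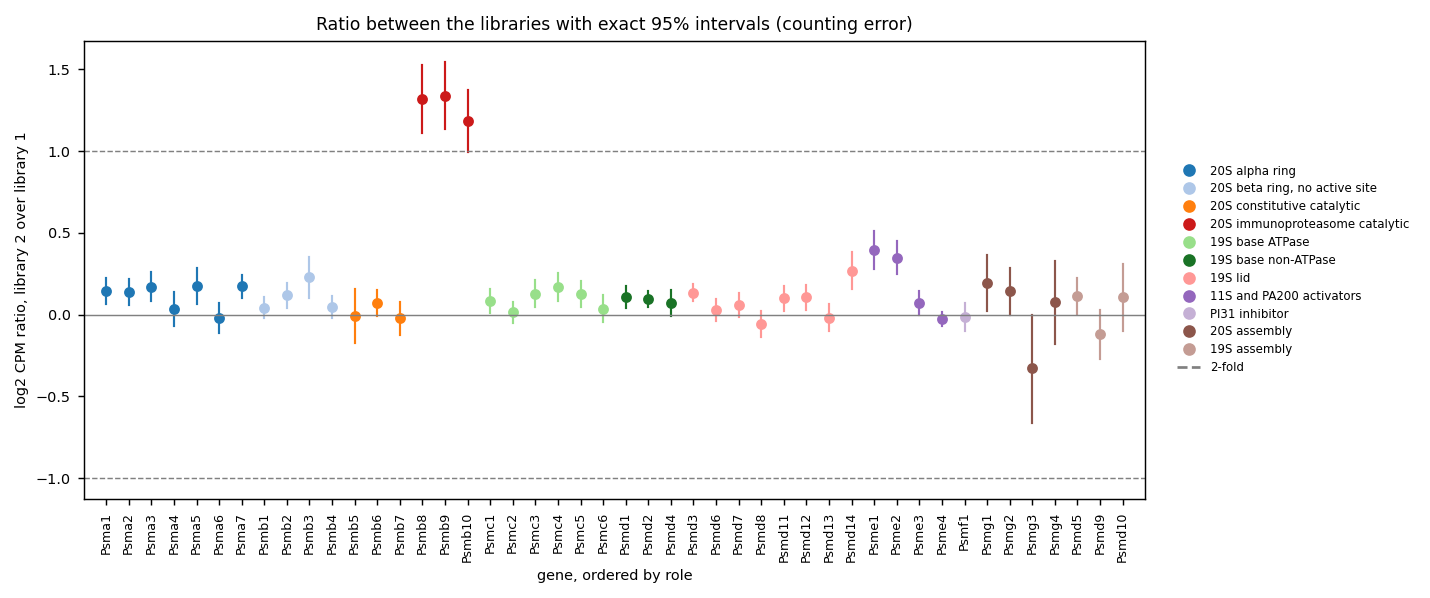
Log2 CPM ratio of library 2 over library 1 for the 46 detected members, ordered by role, with exact 95% intervals that cover counting error only. Psmb8, Psmb9 and Psmb10 lie above the dashed 2-fold line at 1.18 to 1.34, and the other 43 members lie between -0.33 and 0.40.

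The other detected members differed little between the libraries. Their log2 ratios ran from -0.33 (Psmg3) to 0.40 (Psme1), with a median of 0.10 over 43 genes, and 39 of the 43 lay within 1.2-fold. Of the genes at a mean of 1 CPM or more, 71.8% lay within 1.2-fold, with a median of -0.03. These shares are not like for like. The wider set reaches down to 1 CPM, where counting error is larger, while all members had median levels of 50.8 and 54.7 CPM. The 43 genes also leave out the called triple. By adjusted p alone, 21 of the 47 members tested passed, all of them higher in library 2, beside 32.4% of all genes in either direction and 13.4% higher. Depth enters this count, since well-counted genes pass at small ratios. Among genes at a mean of 1 CPM or more, 46.1% passed in either direction, 19.2% passed as higher and 26.9% as lower in library 2, beside 21 of 46 members. With TMM scaling 31 members passed, again all higher in library 2. Over the whole table, 3592 genes then passed as higher (17.4%) and 2976 as lower (14.4%), where the totals gave 2769 and 3930.

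Besides the inducible triple, the members that passed by adjusted p were spread over core and cap. They were 5 of 7 alpha-ring genes, 2 of 4 beta-ring genes without a proteolytic site, 3 of 6 ATPase genes, 2 of 3 other base genes, 4 of 8 lid genes, and Psme1 and Psme2. No constitutive catalytic gene and no assembly gene passed with the library totals, but Psmb6, Psmg1, Psmg2 and Psmd5 did with TMM scaling or DESeq2's size factors. The largest ratio of a 19S gene was that of Psmd14, with 26.3 and 31.7 CPM and a log2 ratio of 0.27 (0.16 to 0.38; adjusted p = 1.86e-05, exact binomial test). In the core it was Psmb3, with 22.0 and 25.8 CPM and a log2 ratio of 0.23 (0.10 to 0.35; adjusted p = 0.00149, exact binomial test). Psmg3 had the lowest ratio, from 205 and 127 reads, and did not pass (log2 ratio -0.33, interval -0.66 to -0.003; adjusted p = 0.118, exact binomial test).

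The genes of the 11S and PA200 caps differed in both level and ratio. Psme1 and Psme2, which encode the interferon-inducible alpha and beta subunits of PA28, lie 5.91 kb apart on chromosome 14. Psme1 had 28.7 TPM in library 1 and 37.3 TPM in library 2. Psme2 had 49.98 and 62.9 TPM, so it exceeded Psme1 1.74-fold in library 1 (1.62 to 1.88) and 1.69-fold in library 2 (1.56 to 1.82). Both were higher in library 2, Psme1 with 23.0 and 30.2 CPM (log2 ratio 0.40, interval 0.28 to 0.51; adjusted p = 5.13e-10, exact binomial test) and Psme2 with 32.0 and 40.7 CPM (0.35, interval 0.25 to 0.45; adjusted p = 1.39e-10, exact binomial test). Neither reached 2-fold. Psme2 shares 28.3% of its words with other transcripts, mostly those of Psme2b and Gm7928, so its level is uncertain.

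Psme3, the nuclear PA28 gamma, had 64.6 and 67.0 TPM, and Psme4, the PA200 cap, had 61.5 and 59.7 TPM. Their log2 ratios between the libraries were 0.07 and -0.03, and neither passed the exact binomial test. With TMM scaling the sign of Psme4 turned to 0.02, and Psme3 passed by adjusted p (0.11; adjusted p = 0.0087, exact binomial test). Relative to Psme3, the odds of a Psme1 read rose 1.25-fold from library 1 to library 2 (1.14 to 1.38; adjusted p over 4 tests 1.54e-05, Fisher's exact test) and those of a Psme2 read 1.21-fold (1.11 to 1.32; adjusted p = 1.96e-05, Fisher's exact test). Those of Psme1 against Psme2 did not pass, at 1.03-fold (0.93 to 1.15; adjusted p = 0.567, Fisher's exact test). Those of Psme4 against Psme3 were 0.94-fold (0.88 to 0.99; adjusted p = 0.0323, Fisher's exact test). Within the libraries, Psme3 exceeded Psme2 on the TPM scale, 1.29-fold in library 1 and 1.07-fold in library 2. With the longest coding transcript as length the order turned, and Psme2 exceeded Psme3 1.28-fold and 1.55-fold.

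Of the inducible catalytic genes, 2 are neighbours on GRCm38 (GENCODE M21). Psmb9 (ENSMUSG00000096727) runs along the minus strand of chromosome 17 between bases 34181987 and 34187764. Psmb8 (ENSMUSG00000024338) runs along its plus strand between 34197721 and 34201454, and each has 4 merged exons. Tap1, which encodes a subunit of the MHC class I peptide transporter, lies between them and overlaps Psmb9 head to head by 212 bases. Psmb10 (ENSMUSG00000031897), with 6 merged exons, lies on the minus strand of chromosome 8 between 105935735 and 105938444. Psmb9 and Tap1 start in opposite directions from one stretch, and their promoter windows share 275 bases. Tap1 had 20.2 and 46.4 CPM, a ratio of 2.30-fold beside 2.53-fold for Psmb9.

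Promoter sequences are given for the 5 interferon-inducible members that were higher in library 2 by adjusted p and for 2 constitutive catalytic genes that did not pass. RefSeq held windows for 41 of the 49 members, from 250 bases before to 50 bases after a start, on GRCm38.p6. No window was found for Psma8, Psmb1, Psmb2, Psmb7, Psmc3, Psmd3, Psmd7 and Psmg2. Psme2 has 2 windows, of which 1 is shown. Each sequence runs 5′ to 3′ on the strand of its gene. Capitals mark matches, on either strand, to the interferon-stimulated response element (GAAA, 2 bases of any kind, then GAAA), the gamma-activated site (TTCNNNGAA) or the antioxidant response element (TGACNNNGC), through which Nfe2l1 and Nfe2l2 act.
Psmb8 (chr17:34197945-34198244, plus strand): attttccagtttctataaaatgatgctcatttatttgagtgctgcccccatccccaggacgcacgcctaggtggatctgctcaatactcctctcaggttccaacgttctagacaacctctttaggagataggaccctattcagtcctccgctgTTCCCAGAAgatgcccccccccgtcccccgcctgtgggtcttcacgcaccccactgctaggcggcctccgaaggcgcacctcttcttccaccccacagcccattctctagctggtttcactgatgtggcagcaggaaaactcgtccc
Psmb9 (chr17:34187281-34187580, minus strand): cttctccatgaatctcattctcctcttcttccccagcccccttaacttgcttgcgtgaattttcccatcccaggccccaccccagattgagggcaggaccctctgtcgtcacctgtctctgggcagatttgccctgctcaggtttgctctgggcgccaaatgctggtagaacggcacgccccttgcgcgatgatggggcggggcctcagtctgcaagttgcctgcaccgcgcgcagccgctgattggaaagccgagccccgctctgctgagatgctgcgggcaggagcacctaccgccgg
Psmb10 (chr8:105938343-105938642, minus strand): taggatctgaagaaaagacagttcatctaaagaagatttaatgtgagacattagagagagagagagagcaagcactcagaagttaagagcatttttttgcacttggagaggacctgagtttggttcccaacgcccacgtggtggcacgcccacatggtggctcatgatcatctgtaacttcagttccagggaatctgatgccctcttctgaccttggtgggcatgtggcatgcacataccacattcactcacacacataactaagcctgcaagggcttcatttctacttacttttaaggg
Psme1 (chr14:55578244-55578543, plus strand): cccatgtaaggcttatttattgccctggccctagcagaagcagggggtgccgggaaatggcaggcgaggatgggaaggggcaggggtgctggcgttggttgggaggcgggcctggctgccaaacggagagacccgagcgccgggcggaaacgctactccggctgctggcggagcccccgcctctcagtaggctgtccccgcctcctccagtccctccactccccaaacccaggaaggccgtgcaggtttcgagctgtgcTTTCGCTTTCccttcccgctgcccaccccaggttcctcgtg
Psme2 (chr14:55591052-55591351, minus strand): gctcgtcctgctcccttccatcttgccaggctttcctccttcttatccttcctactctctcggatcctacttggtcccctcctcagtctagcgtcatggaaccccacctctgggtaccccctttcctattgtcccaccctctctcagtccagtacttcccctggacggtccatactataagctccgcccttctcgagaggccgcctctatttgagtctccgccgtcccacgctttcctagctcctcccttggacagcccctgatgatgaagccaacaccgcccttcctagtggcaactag
Psmb5 (chr14:54617946-54618245, minus strand): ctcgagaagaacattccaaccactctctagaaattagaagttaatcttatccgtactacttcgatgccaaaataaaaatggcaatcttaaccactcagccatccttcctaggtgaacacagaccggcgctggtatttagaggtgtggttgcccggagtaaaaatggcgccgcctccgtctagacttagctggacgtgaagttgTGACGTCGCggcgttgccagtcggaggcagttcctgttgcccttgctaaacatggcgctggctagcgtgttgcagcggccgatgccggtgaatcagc
Psmb6 (chr11:70525107-70525406, plus strand): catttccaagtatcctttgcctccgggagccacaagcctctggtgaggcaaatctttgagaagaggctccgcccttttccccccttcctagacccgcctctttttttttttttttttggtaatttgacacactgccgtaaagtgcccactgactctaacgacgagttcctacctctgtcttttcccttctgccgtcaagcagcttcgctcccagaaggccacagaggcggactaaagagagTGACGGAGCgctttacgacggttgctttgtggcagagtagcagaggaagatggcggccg

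Psmb8 held the letters of a gamma-activated site that begins 97 bases before its start. Psme1 held an interferon-stimulated response element, read on the opposite strand, from base 10 after its start. The windows of Psmb9, Psmb10 and Psme2 held neither in these letters, which says nothing of other windows or looser forms. Psmb5 and Psmb6 held an antioxidant response element that begins 47 and 9 bases before the start. Over all 44 windows of members, the interferon-stimulated response element was in 11.4%, the gamma-activated site in 6.82% and the antioxidant response element in 13.6%. Among all 32851 windows the shares were 3.44%, 8.30% and 12.4%. The other windows with an antioxidant response element were those of Psmc6, Psmd9, Psmd12 and Psme4. Besides Psme1, the interferon-stimulated response element was in windows of Psmb3, Psmd4, Psmd9 and Psmg4. Besides Psmb8, the gamma-activated site was in windows of Psmd2 and Psmg1. The shares of members' windows thus do not describe the interferon-inducible members alone. The CCAAT box (CCAAT), which NF-Y binds, was in 31.8% of members' windows and 37.4% of all windows. A match is a description of letters, not a bound site.

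Genes outside the naming rule that work with the proteasome were expressed as well. Of 10 further subunits and assembly factors, 9 were analysed here and Paaf1 was not, and all 9 were detected. Akirin2, which brings proteasomes into the nucleus, was the highest with 55.8 and 65.4 TPM. The remaining cap subunits Adrm1, a ubiquitin receptor, and Sem1 had 24.8 and 26.5 TPM and 26.8 and 26.5 TPM. Pomp, the maturation chaperone of the core, had 18.6 and 20.4 TPM. Of these 9, only Psmc3ip, a recombination factor named for binding an ATPase subunit, was called, with 1.10 and 4.54 CPM (log2 ratio 2.04; adjusted p = 2.66e-22, exact binomial test). It was also the lowest of the list, at 1.66 and 6.80 TPM. Of 13 deubiquitinases and ubiquitin receptors, all were detected and none was called. Over all genes tested, 4.31% were called in either direction, so such counts in short lists are no result about the lists. By adjusted p alone some passed, among them Txnl1 as higher and Ubqln2 as lower in library 2 (log2 ratios 0.18 and -0.15). Ubqln2, a shuttle factor, was the highest with 152 and 135 TPM, and Ube3a, a ubiquitin ligase, the lowest with 10.3 and 9.998 TPM.

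The regulators of proteasome gene transcription were led by Nfe2l1 (NRF1), the factor that raises proteasome genes when proteolysis fails, with 179 and 192 TPM. Nfe2l2 (NRF2) had 32.7 and 35.0 TPM and Nfe2l3 was the lowest with 0.703 and 0.822 TPM. None of the 15 regulators was called, beside 4.31% of all genes tested. Their median log2 ratio was 0.12, beside -0.04 over all genes tested, and the largest was that of Maff, 0.63, with 56.2 and 87.1 CPM. Ddi2, the protease that activates NRF1, had 26.8 and 27.3 TPM.

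Some genes of the interferon gamma pathway were called in the same direction as the inducible subunits. Of 25 such genes, 10 were called higher in library 2, 15 were not called and none was called lower, beside 1.91% of all genes called higher and 2.40% called lower. Their median log2 ratio was 0.71, beside -0.04 over all genes tested. The list was chosen with earlier results of these data known and does not support the result on Psmb8, Psmb9 and Psmb10. Among the called genes were Nlrc5, Tap1, B2m, Gbp2, Gbp3, Irgm1, Igtp, Iigp1 and Cxcl10. Nlrc5, the activator of MHC class I genes, had 2.73 and 12.8 CPM, and B2m, the light chain of those molecules, had 41.8 and 84.4 CPM. Irf1, which binds interferon-stimulated response elements, had 45.5 and 89.5 CPM and at 1.97-fold stayed just under the limit. The receptor genes Ifngr1 and Ifngr2 did not pass, with log2 ratios of -0.02 and -0.12. The lowest of the list was Ciita, with 0.398 and 0.688 TPM, and the highest was H2-K1, with 269 and 344 TPM.

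**Figure D4:**
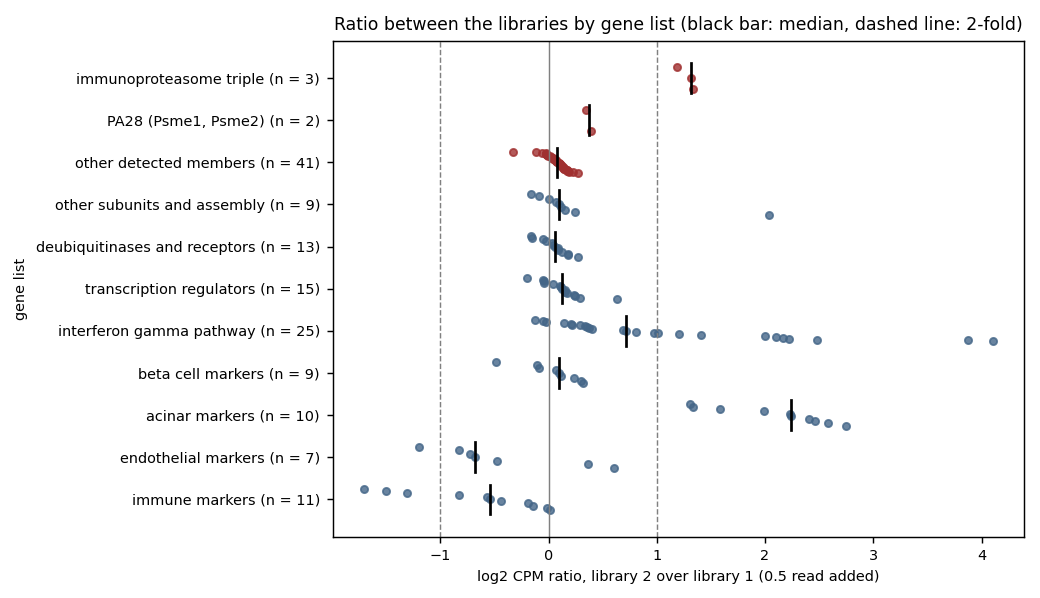
Log2 CPM ratio of library 2 over library 1 for detected members of the proteasome groups (red) and tested genes of other lists (blue). Black bars give the median of each, and dashed lines the 2-fold limits. Of the marker lists, only beta-cell, acinar, endothelial and immune markers are drawn. Psme2b, the ubiquitin genes and the targeted genes are not drawn. The inducible triple, the interferon gamma pathway and the acinar markers lie to the right, at medians of 1.32, 0.71 and 2.24, and most immune markers lie left of 0.

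Markers of other cell types were set beside the difference. The sum of 13 immune markers was 63.1 CPM in the first and 53.5 CPM in the second library, with a median log2 ratio of -0.54 and 2 of 11 tested called, both lower in library 2, beside 2.40% of all genes called lower. Of the 13, Ptprc, a marker of all leukocytes, had 0.878 and 0.487 CPM, and Cd3e and Itgam had at most 2 reads in a library. None of the 13 was at 0 in both libraries. Endothelial markers summed to 30.3 and 22.2 CPM and mesenchymal markers to 13.6 and 8.90 CPM. C1qa made up most of the immune sum, with 39.1 and 35.3 CPM. C1qb and C1qc, which encode the other chains of the same protein, were under 0.5 CPM. H2-Aa and H2-Ab1 had log2 ratios of -0.01 and 0.02. Acinar markers summed to 120.0 and 532 CPM, ductal markers to 850 and 1190.1 CPM, alpha-cell markers to 513 and 371 CPM, delta-cell markers to 1653 and 1224 CPM and PP-cell markers to 975 and 1211 CPM. Spp1 made up most of the ductal sum, with 659 and 967 CPM. The part of these marker differences in the ratios of proteasome genes was not tested. In such bulk samples, a change in the share of a cell type and a change of RNA per cell cannot be told apart.

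The members differed in how well their counts were separated from those of other genes. Of the 49 members, 20 shared no 50-base word with another transcript in GENCODE M21, and 11 shared over 10%. The highest shares were those of Psme2b (69.3%), Psmb5 (54.1%), Psma5 (49.96%) and Psme2 (28.3%). The genes that shared the words included overlapping ones, Mir686 for Psmb5 and 1700010K24Rik for Psma5. Exons of 11 members lay partly over an antisense gene, as in Psmb7 with Nek6 (11.8% of exon bases) and Psmd13 with Sirt3 (10.1%). The library kits do not mark strand per the labels, so reads of such stretches cannot be assigned.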

How the data were processed

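RNA was sequenced from 2 libraries of 1 group of sorted mutant beta cells. Per the file headers, the authors deposited a raw count, a TPM and a CPM for each gene. The submitters' processing notes list the build GRCm38.p6 with featureCounts 2.0.2, STAR 2.7.8a and cutadapt 2.10. How strand and multiply matching reads were treated is not given in the sources used here. In all 46 members with over 20 reads in library 1, the length implied by the deposited TPM lay within 1% of the merged exons of GENCODE M21, after scaling to the median. Because the gene lists and members were chosen with earlier results of these data known, they support no pattern by themselves.

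Each of 20681 genes with 10 or more reads summed was compared between the libraries by an exact two-sided binomial test of its counts against the library totals, with Benjamini-Hochberg adjustment over all of them (scipy 1.17.1). A gene was called at an adjusted p under 0.05 and a CPM ratio, with 0.5 read added, of 2-fold or more. This compares the reads of 2 libraries, not conditions; edgeR's quasi-likelihood test needs a second group and was not run. Ratios of 2 genes within a library have exact (Clopper-Pearson) 95% intervals from the counts, and their change was tested by two-sided Fisher's exact test. Intervals and the limit of a 0 count (3 reads) cover counting error only, since without molecular identifiers reads may repeat a molecule. Alternatives used edgeR 4.0.16 (TMM) and DESeq2 1.42.0 size factors, other filters, other fold limits, CPM, each library alone and the longest coding transcript as length. All rows matching the rule are members. Named with values were the catalytic and cap genes, the highest and lowest of each role or list, called genes and those next to a limit; other genes were named after their values were seen, and some genes of the lists are not reported here. The library test and intervals were tested on simulated counts that held counting (Poisson) noise only. The real libraries differed beyond that noise (chi-square per degree of freedom 28.6). The simulation therefore does not give the error rate of the test in these data. Words are 50-base stretches, on either strand, of any transcript of a gene.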

Additional observations from a re-analysis of the deposited data

How the results depend on the processing

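Psmb8, Psmb9 and Psmb10 remained the 3 members called with edgeR's TMM or DESeq2's size factors, no filter or a filter at a mean of 1 CPM, 1 read added, and a 1.5-fold limit. With no fold limit 21 members passed, Psme1 and Psme2 (0.40 and 0.35) among them. TMM turned the log2 ratios of Psmb5, Psmb7 and Psme4 to 0.035, 0.019 and 0.016, and DESeq2's size factors to 0.037, 0.021 and 0.017, none past the threshold, while Psmb6 and Psme3 passed by adjusted p under both (Psmb6 0.0178 and 0.0165, Psme3 0.0087 and 0.0080), still under 2-fold; both moved the median over all genes by 0.04. With CPM in place of TPM, the mean log2 ratio of Psmb8 over Psmb5 was -0.62 and did not pass in both libraries, and that of Psme4 over Psme3 turned to 1.39. With the longest coding transcript as length, a choice added after the data were seen, Psme1 over Psme3 was -0.17 and no longer passed, Psme2 over Psme3 turned to 0.50 and Psme4 over Psme3 to 0.10. That length gave group medians of 80.3 TPM (alpha ring), 155 (beta ring without active site), 84.6 (constitutive catalytic), 20.6 (inducible catalytic), 107 (ATPases), 89.9 (other base), 86.6 (lid), 72.8 (caps), 31.2 (20S assembly) and 18.3 (19S assembly), against 53.5, 84.5, 43.2, 8.26, 60.7, 56.2, 60.3, 54.8, 27.3 and 12.1. Median CPM was 46.7 (alpha ring), 72.6 (beta ring without active site), 35.8 (constitutive catalytic), 81.9 (other base), 65.4 (lid), 36.4 (caps), 9.30 (20S assembly) and 17.1 (19S assembly). All 7 within-library ratios of 2 genes had passed in both libraries on the TPM scale. Taking each library alone could therefore not change these calls. The change of the inducible to constitutive ratio kept its direction with 0.5 read added. No paired analysis was possible because there is 1 group. Depth limits Psme2b, Psma8 and Psmb11, with at most 9 reads in a library.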

Other observations

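Genes that supply and activate ubiquitin were measured beside the proteasome. Ubb, which encodes a chain of ubiquitin repeats, had 901 TPM in library 1 and 843 TPM in library 2. Rps27a, which encodes ubiquitin fused to a ribosomal protein, had 205 and 197 TPM. Uba1, the main activating enzyme, had 193 and 201 TPM, against 14.2 and 14.9 TPM for Uba6. None of these 4 genes was called, beside 4.31% of all genes tested.

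Of the 7 genes whose symbols begin with Psm outside the rule, 5 were pseudogenes with 0 to 2 reads in a library. Psmb5-ps had 0 reads in both libraries.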
